A study of Mus musculus with 6 samples.

Results

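Imprinted genes are expressed from 1 parental copy. The 8 genes described here (Gnas, Igf2r, Airn, Peg3, Mest, Grb10, Plagl1 and Impact) have control regions that acquire DNA methylation in the egg. They were read in 7 intervals of the mouse genome (build mm9), 1 of which holds both Igf2r and Airn. The intervals were fixed by gene and position and not by any measured value. Together they made 481 windows of 1 kb, of 2566810 such windows of the genome that had reads in their surroundings.

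The reads came from mouse embryonic stem (ES) cells of the inbred strain C57Bl/6, cultured in leukaemia inhibitory factor (LIF) without feeder cells, with no further treatment or genotype in the labels. One library was a chromatin immunoprecipitation (ChIP) with a home-made rabbit antibody against H2A.B (mH2ABbd), a short variant of histone H2A, and 1 was a ChIP with rabbit IgG. Methylated DNA immunoprecipitation (MeDIP), in which an antibody captures single-stranded DNA fragments, gave 3 libraries with mouse antibody 33D3 against 5-methylcytosine (5mC) and 1 with mouse IgG. Both IgG libraries are IgG by their titles and antibody fields, while a further field names the H2A.B antibody. Nothing in the labels ties the 3 5mC libraries to separate cultures, and the spread between them may be technical. Because the strain is inbred, reads from the maternal and the paternal copy were not separated. MeDIP gives enrichment of reads, not the share of methylated copies.

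At an egg-methylated control region the maternal copy is methylated and the paternal copy is not, and the methylation passes through fertilisation into the embryo. The methylated copy silences a promoter in cis, so that a protein-coding gene or a long non-coding RNA is transcribed from the paternal copy. Such regions are rich in the CpG dinucleotide, which carries the methyl group, and ES cells in culture can keep or lose the mark.

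The promoters of 3 paternally expressed members are printed to show how far their CpG content differs. Whether they lie in the control regions was not tested. They were taken from the RefSeq promoter table of build GRCm38.p6 as the 250 bases before each start, 5′ to 3′, with each CpG in capitals. They are chr10:13090582-13090831 (+) for Plagl1, chr6:30737800-30738049 (+) for the second listed start of Mest, and chr17:12741061-12741310 (+) for Airn.
Plagl1: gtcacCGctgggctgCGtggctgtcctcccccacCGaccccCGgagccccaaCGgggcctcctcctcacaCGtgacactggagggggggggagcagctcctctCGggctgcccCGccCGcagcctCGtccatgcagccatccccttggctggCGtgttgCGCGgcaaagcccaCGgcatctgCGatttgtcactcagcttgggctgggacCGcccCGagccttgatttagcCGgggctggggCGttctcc
Mest: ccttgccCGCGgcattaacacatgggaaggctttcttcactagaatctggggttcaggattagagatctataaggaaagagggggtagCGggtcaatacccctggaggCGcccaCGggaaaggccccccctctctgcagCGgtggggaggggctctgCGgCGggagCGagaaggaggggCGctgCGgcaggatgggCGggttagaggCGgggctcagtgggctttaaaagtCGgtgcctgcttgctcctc
Airn: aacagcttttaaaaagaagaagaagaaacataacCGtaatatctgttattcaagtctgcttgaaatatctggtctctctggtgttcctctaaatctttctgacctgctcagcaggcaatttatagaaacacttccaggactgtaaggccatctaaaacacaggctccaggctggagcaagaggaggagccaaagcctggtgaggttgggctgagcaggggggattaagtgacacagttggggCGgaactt

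The Plagl1 promoter held 19 CpG, a number reached by 19.7% of the 32851 promoters in the table. The Mest promoter held 14, reached by 29.4%, and the Airn promoter held 2, reached by 81.2%. The table matched 7 of the 8 members with 13 promoters, of which 9 had at least 10 CpG, against 37.8% of all promoters. Among the 9, the Gnas promoters from 174327499 and 174327518 overlapped, as did the Mest promoters from 30737800 and 30737803. The 9 are therefore not all separate sequences. No mm9 sequence was used, so these promoters were not placed on the windows below.

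Since PCR copies fragments, each position and strand was counted once. Distinct reads on chromosomes 1 to 19, X and Y numbered 8053559 in H2A.B ChIP, 539303 in IgG ChIP, 1396972, 1893285 and 803580 in 5mC replicates 1, 2 and 3, and 124157 in IgG MeDIP. The mean window of the 7 intervals held 4.13 reads of H2A.B (3.13 over the genome), 1.06, 0.811 and 0.353 of the 5mC replicates (0.543, 0.737 and 0.313) and 0.260 of IgG ChIP (0.210). H2A.B ChIP and 5mC replicate 1 shared lane 3 of 1 flow cell and had reads of 42 bp. The other 4 libraries had reads of 50 bp from lanes 1 and 2 of a second flow cell. All 201263 reads of the IgG MeDIP list were also in the list of 5mC replicate 2 and were removed from it.

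In 5mC replicate 1 each interval held a peak of reads, narrow except in Gnas. In the highest window of the peak, replicate 2 had no read in 6 of the 7 intervals. A fold below is the number of reads in a 1 kb window over the level in the 50 kb on each side of that window, in the same library. Its 95% interval is exact, from the binomial share of the reads, and covers counting error only. Where a window held 0 reads, the fold that 3 reads would give is stated as the limit. In 5mC replicate 1, the window with most reads in each interval was chosen on that library after its values were seen. The values of replicate 1 there are therefore a description. The other libraries played no part in the choice.

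**Figure D1:**
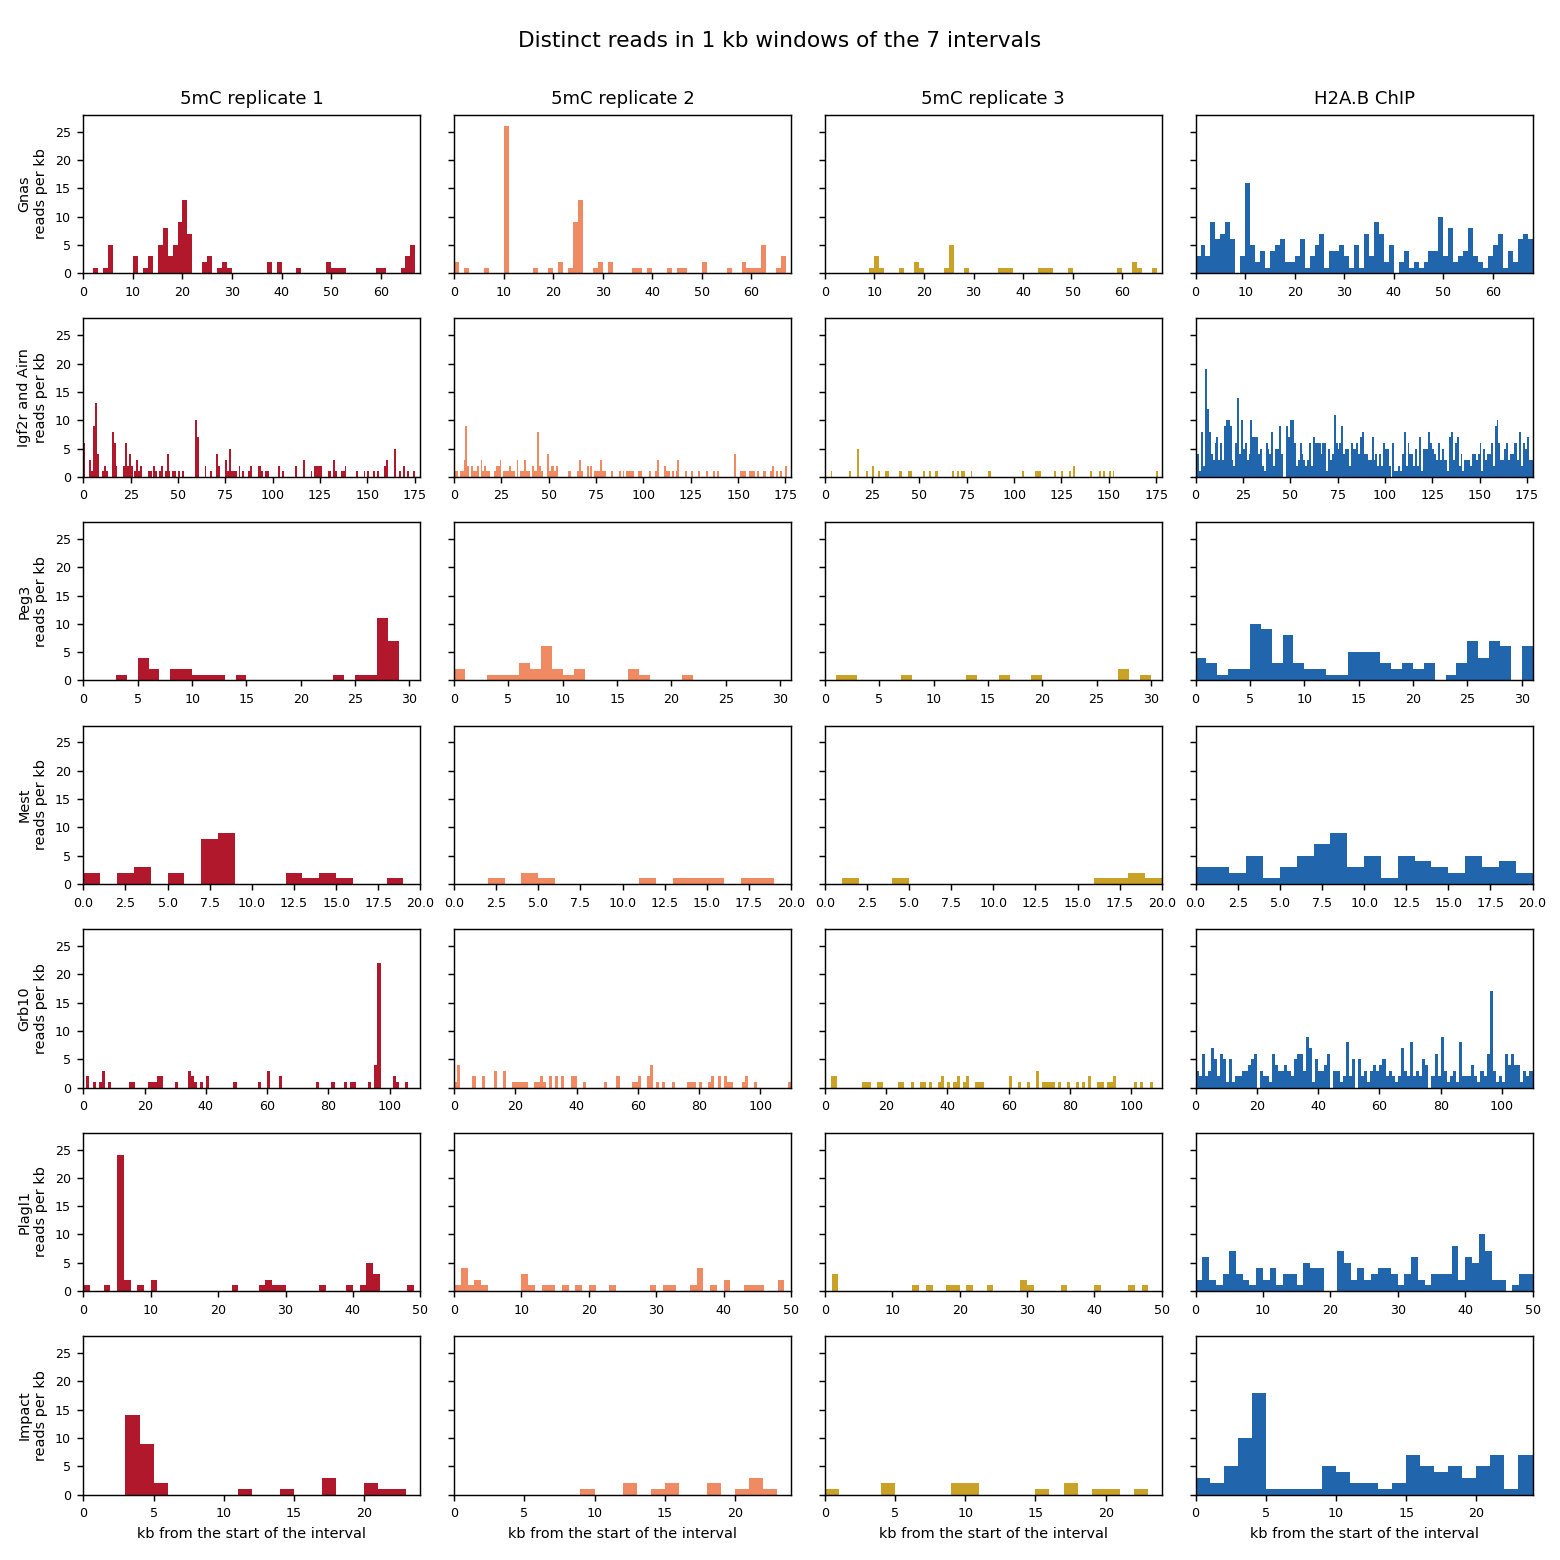
Distinct reads in each 1 kb window (vertical axis, reads per kb) against the distance from the start of the interval (horizontal axis, kb), with 1 row for each interval and 1 column for each of 4 libraries. Replicate 1 rises to 9 to 24 reads in 1 window of every interval, and replicates 2 and 3 have no such bar in the same place, apart from Igf2r and Airn in replicate 2.

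Plagl1 encodes a zinc finger transcription factor and is transcribed from the paternal copy. Its interval (chromosome 10, 12805001 to 12855000) had its peak at 12810001 to 12811000, with 24 reads in 5mC replicate 1, 0 in replicate 2, 0 in replicate 3, 7 in H2A.B ChIP, 2 in IgG ChIP and 0 in IgG MeDIP. Of the 5mC libraries, replicate 1 alone had reads there. Its fold was 38.7 (95% interval 23.1 to 62.9), while the limits for replicates 2 and 3 were 3.0 and 8.57. The 24 reads lay on both strands, 9 on the plus and 15 on the minus strand, within 625 bp. H2A.B stood at 2.02 (0.807 to 4.21), and the 2 reads of IgG ChIP gave a fold of 10 (1.13 to 41.2). A second window, 12847001 to 12848000, held 5 reads of replicate 1 and 10 of H2A.B, the highest count of H2A.B in this interval.

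Peg3 encodes a large zinc finger protein and is also transcribed from the paternal copy. In its interval (chromosome 7, 6655001 to 6686000), which lies on the minus strand in RefSeq, the peak lay near the upper end, at 6682001 to 6684000. The window 6682001 to 6683000 held 11 reads of 5mC replicate 1, 0 of replicate 2, 2 of replicate 3, 7 of H2A.B and 0 of both IgG libraries. Replicate 1 had a fold of 19.3 (9.13 to 37.2) and replicate 3 of 6.67 (0.772 to 26.3), an interval that holds both no enrichment and the fold of replicate 1. The limit in replicate 2 was 2.42. The adjacent window held 7 reads of replicate 1 and 0 of replicates 2 and 3. Replicate 2 had its own highest window elsewhere, at 6663001 to 6664000, with 6 reads.

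Mest encodes a protein of the hydrolase fold, transcribed from the paternal copy. In its interval (chromosome 6, 30680001 to 30700000) the windows 30687001 to 30688000 and 30688001 to 30689000 held 8 and 9 reads of 5mC replicate 1 and 0 of replicates 2 and 3. H2A.B had 7 and 9 reads in this pair, IgG ChIP 2 and 0, and IgG MeDIP 0 in both. In the second window the fold was 15.0 (6.54 to 30.4) in replicate 1 and 4.39 (1.98 to 8.50) in H2A.B, whose highest window of the interval this was. The limits were 7.32 in replicate 2 and 13.0 in replicate 3, so the limit of replicate 3 lay just under the fold of replicate 1.

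Impact encodes a regulator of translational control and is transcribed from the paternal copy. Its interval (chromosome 18, 13128001 to 13152000) had 14 and 9 reads of 5mC replicate 1 in the adjacent windows 13131001 to 13132000 and 13132001 to 13133000. Replicate 2 had 0 reads in both, replicate 3 had 0 and 2, and both IgG libraries had 0. H2A.B had 10 and 18 reads there, the second being its highest window of the interval. The fold of replicate 1 was 20.0 (10.4 to 35.8) and 11.8 (5.22 to 23.7), against limits of 2.86 in replicate 2. H2A.B stood at 2.03 (0.969 to 3.77) and 3.76 (2.21 to 6.00).

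Grb10 encodes an adaptor that dampens insulin and IGF receptor signalling, and is transcribed from the maternal copy in most tissues and from the paternal copy in neurons. Its interval (chromosome 11, 11830001 to 11940000) had a single peak window, 11926001 to 11927000. It held 22 reads of 5mC replicate 1, 0 of replicate 2, 0 of replicate 3 and 17 of H2A.B, with 1 read of IgG ChIP and 0 of IgG MeDIP. H2A.B and replicate 1 both had their highest count of the interval here. The fold was 75.9 (41.5 to 137) in replicate 1 and 5.30 (3.05 to 8.61) in H2A.B, against limits of 5.45 and 5.88 in replicates 2 and 3. Of the 22 reads 14 lay on the plus and 8 on the minus strand, within 831 bp. In the whole interval replicate 2 held 70 reads, as many as the 70 of replicate 1, but in no window more than 4.

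Igf2r encodes the receptor that clears IGF2 and is transcribed from the maternal copy. Airn is the paternal long non-coding RNA that starts within Igf2r on the opposite strand and silences it in cis. Their interval (chromosome 17, 12875001 to 13053000) differed from the others in that replicates 1 and 2 had most reads in the same window. At 12881001 to 12882000 there were 13 reads of 5mC replicate 1, 9 of replicate 2, 0 of replicate 3 and 12 of H2A.B, with 0 reads of IgG ChIP and 1 of IgG MeDIP. The fold was 9.49 (4.93 to 16.8) in replicate 1 and 7.26 (3.24 to 14.2) in replicate 2, with a limit of 6.98 in replicate 3. A separate peak of replicate 1 at 12934001 to 12936000 held 10 and 7 reads in its 2 windows. There replicate 2 had 0 and 1, replicate 3 had 1 and 0, H2A.B had 3 and 6, and IgG ChIP had 0 and 1. In the first of them replicate 1 stood at 9.52 (4.44 to 18.2) and H2A.B at 0.599 (0.123 to 1.76). By fold, replicate 1 was thus about as high here as at 12881001, and the shared window rests on ranking by reads.

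Gnas encodes the alpha subunit of the stimulatory G protein, and the locus has several promoters with more than 1 control region. In its interval (chromosome 2, 174105001 to 174173000) 5mC replicate 1 was spread over a broad stretch and replicate 2 peaked elsewhere. Replicate 1 had 34 reads over the 4 windows from 174123001 to 174127000, where replicates 2 and 3 had 3 each, H2A.B had 13 and both IgG libraries had 0. A further 13 reads of replicate 1 lay at 174120001 to 174122000. The highest window, 174125001 to 174126000, held 13 reads of replicate 1 and 0 of replicates 2 and 3, with a fold of 13.4 (6.89 to 24.0) against limits of 2.97 and 7.69.

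Replicate 2 had its highest Gnas window at 174115001 to 174116000, with 26 reads against 3 in replicate 1, 3 in replicate 3, 16 in H2A.B and 0 in both IgG libraries. Its fold was 38.2 (23.4 to 60.9), while replicate 3 stood at 8.57 (1.69 to 27.2), replicate 1 at 3.03 (0.614 to 9.12) and H2A.B at 3.94 (2.23 to 6.48). Replicates 2 and 3 both had a lower bound above 1 in this window. At 174130001 to 174131000 replicate 2 had 13 reads, replicate 3 had 5 and replicate 1 had 3. IgG ChIP and IgG MeDIP had 3 reads each in that window, their highest counts of any window in the 7 intervals (3 was also reached by IgG ChIP in the Peg3, Mest and Plagl1 intervals). Its folds in replicates 2 and 3 therefore stood beside IgG folds of 23.1 (4.22 to 84.0) and 75.0 (11 to 443). Replicate 2 was also high at 174129001 to 174130000 (9 reads) and 174167001 to 174168000 (5 reads), where replicate 1 had 2 and 0.

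**Figure D2:**
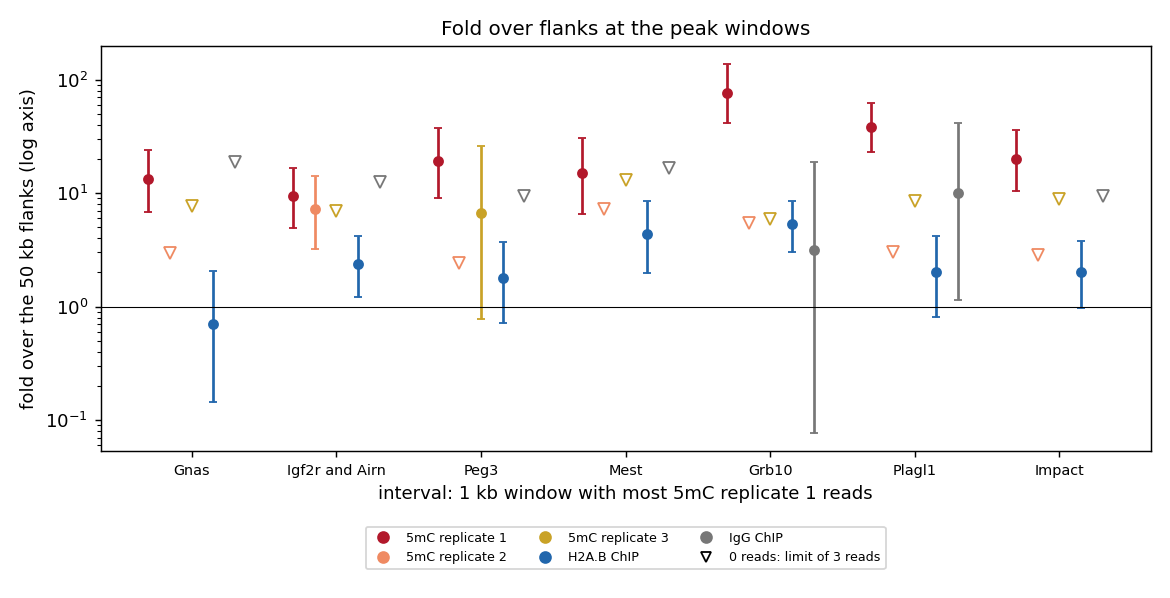
Fold over the 50 kb flanks (vertical log axis) in the 1 kb window with most 5mC replicate 1 reads of each interval (horizontal axis), for 5 libraries. Points are folds with exact 95% intervals, and open triangles mark the fold of 3 reads where a library had 0. Replicate 1 lies between 9.49 and 75.9, and H2A.B between 0.703 and 5.30.

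Summed over the 7 peak windows, 5mC replicate 1 had 106 reads (fold 20.7, 16.6 to 25.6), replicate 2 had 9 (1.38, 0.630 to 2.65) and replicate 3 had 2 (0.784, 0.0945 to 2.86). All 9 reads of replicate 2 came from the Igf2r and Airn window. Without that window replicate 2 had 0 reads where its flanks held 526 (limit of 3 reads 0.570, exact 95% upper bound 0.704), and replicate 1 had 93 (24.8, 19.6 to 31.2). Over all 7 windows IgG ChIP had 3 reads (1.72, 0.352 to 5.12) and IgG MeDIP 1 (2.27, 0.0563 to 13.3). Without the Igf2r and Airn window they had 3 (2.00, 0.408 to 5.96) and 0 (limit of 3 reads 8.11). The Igf2r and Airn window was set aside after its value was seen. Flow cell, lane and read length differed together between replicate 1 and the other 5mC libraries, and they cannot be told apart from the library itself.

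By the rule that asked for at least 2 reads and at least 4 times the flanks in each of the 3 5mC libraries, 0 of the 481 windows were high, against 0.222% of all windows of the genome. Over pairs of libraries the count was 4 without replicate 1, 4 without replicate 2 and 1 without replicate 3. With no IgG MeDIP read and an IgG ChIP fold under 4 as further conditions the count was 0, against 0.0703% of all windows. At shares this small, counts of 0 among 481 windows do not set the intervals apart from the genome. A rule for 1 library alone was therefore added after the values were seen: at least 5 reads, at least 4 times the flanks and a lower bound above 1. It called 24 windows (4.99%) in replicate 1, against 1.27% of all windows (15 with windows of 2 kb and 12 at 8 times the flanks). In replicate 2 it called 7 (1.46%, against 1.49%), which was 14 with all reads as deposited, 4 with windows of 2 kb and 3 at 8 times. In replicate 3 it called 2 (0.416%, against 0.103%), and in the IgG libraries 0, against 0.0357% in IgG ChIP and 0.0303% in IgG MeDIP. No window of the 7 intervals held more than 3 reads of either IgG library, so the rule could call none there. Counts by this rule also depend on the depth of each library. In H2A.B it called 2, those of Mest and Grb10 (0.416%, against 0.591%). Outside Gnas, the windows of replicate 2 began at 12881001 and 12919001 in Igf2r and Airn and at 6663001 in Peg3, with 9, 8 and 6 reads. Those of replicate 3 began at 174130001 in Gnas and 12892001 in Igf2r and Airn, with 5 reads each. The members' share in replicate 2 was thus near that of all windows.

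**Figure D3:**
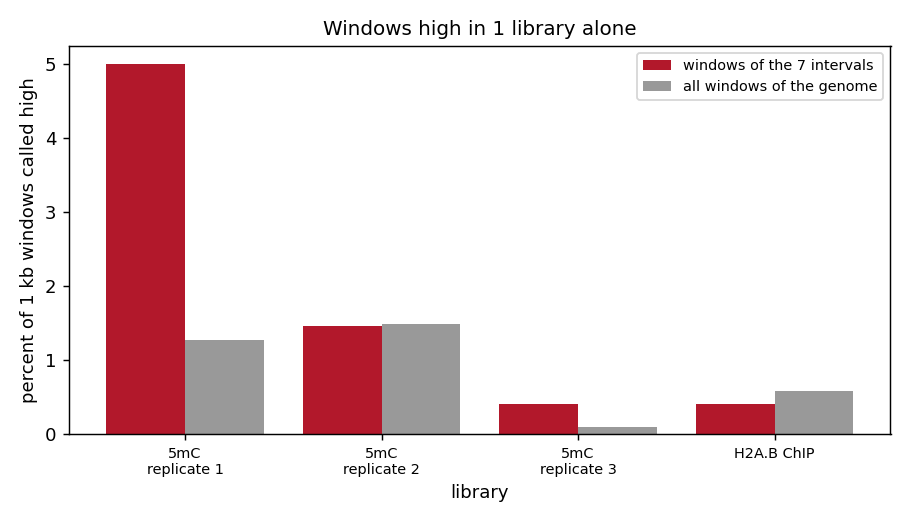
Percent of 1 kb windows called high in 1 library alone (vertical axis, from 0) for 4 libraries (horizontal axis), in the 7 intervals and in the genome. In 5mC replicate 1 the bars stand at 4.99% and 1.27%, in replicate 2 at 1.46% and 1.49%.

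The 24 windows high in replicate 1 fell in all 7 intervals, with 8 in Gnas, 7 in Igf2r and Airn, 2 each in Peg3, Mest, Plagl1 and Impact, and 1 in Grb10. Adjacent windows joined to 15 stretches of 1 to 4 kb. Reads in these stretches had been copied 1 to 3 times per position on average, and no position had more than 7 copies, and each stretch held 5 to 34 distinct positions. Beside the peaks already given, the stretches in the Igf2r and Airn interval began at 12890001, 12952001 and 13039001, with 8, 5 and 5 reads of replicate 1. Those in Gnas began at 174110001 and 174171001, with 5 reads each.

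The windows high in replicate 1 were then read in replicates 2 and 3. Replicate 2 had 0 reads in 14 of the 24 windows (58.3%), against 16.4% of the 32596 windows high in replicate 1 across the genome. Its summed fold was 1.09 here and 5.08 there. In replicate 3 the shares were 66.7% and 57.6%, and the summed folds 1.31 and 2.75. The controls differed in the same direction, with summed folds of 1.89 and 7.61 in IgG MeDIP and 1.68 and 2.57 in IgG ChIP. IgG MeDIP had 0 reads in 87.5% and 80.4% of these windows. The windows of the genome thus include places where the controls pile up as well. Windows that were high in replicate 1 and had no read in either other replicate numbered 9 of the 481 (1.87%), against 0.141% of all windows. These are descriptions of the same libraries, and no test was made of them.

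H2A.B was raised at some of the peaks and not at others. At least 3 times the flanks with a lower bound above 1 was reached by 7 of the 481 windows (1.46%), near the 1.97% of all windows. They were 174115001 in Gnas (16 reads), 12880001 in Igf2r and Airn (19 reads), 30687001 and 30688001 in Mest (7 and 9), 11926001 in Grb10 (17), 12847001 in Plagl1 (10) and 13132001 in Impact (18), each named by its first base. No window of Peg3 passed, where the highest count was 10, at 6660001 to 6661000. IgG ChIP held 0 reads in 5 of these 7 windows, 1 in that of Grb10 and 2 in the Mest window 30687001, where its fold of 12.5 (1.39 to 53.2) stood above the 3.32 (1.32 to 6.96) of H2A.B. The count of 7 fell to 1 with windows of 2 kb and was 20 at 2 times the flanks.

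Of the 7 windows 6 were also high in replicate 1, the exception being that of Gnas. Across the genome 5122 of the 50605 windows high in H2A.B were also high in replicate 1. Put the other way, 25% of the 24 windows high in replicate 1 were high in H2A.B, against 15.7% of the windows high in replicate 1 across the genome. The median H2A.B fold was 1.77 in the 24 windows and 1.60 in those of the genome, while the summed fold lay the other way, at 1.92 and 2.15. H2A.B in the 7 peak windows summed to 65 reads and a fold of 2.42 (1.86 to 3.09). Within 500 bp of the centres of the peaks it stood at 3.14 times (2.30 to 4.25) its level 2 to 5 kb away, and IgG ChIP at 1.26 times (0.313 to 3.80). The IgG ChIP interval, from 4 reads near the centres, also holds the H2A.B value, so it does not tell the 2 libraries apart.

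H2A.B and replicate 1 shared a lane. In the 24 windows 0 of the 223 positions of replicate 1 were also positions of H2A.B, and 0 of 511 in the 7 intervals as a whole, against 3.92% of all positions of replicate 1 on the chromosomes counted. The part of the lane in the rise of H2A.B at the peaks was not tested.

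**Figure D4:**
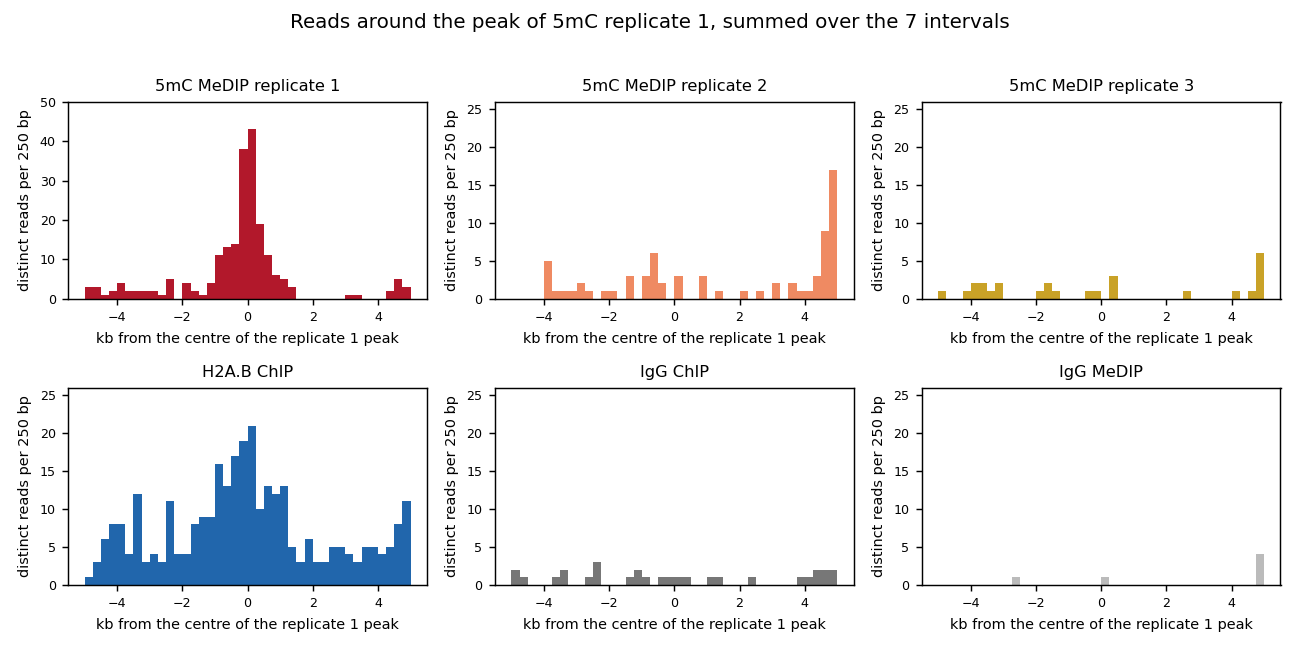
Distinct reads per 250 bp (vertical axes, with a wider range for 5mC replicate 1) against the distance from the centre of the replicate 1 peak (horizontal axis, kb), summed over the 7 intervals, for all 6 libraries. Within 500 bp of the centre replicate 1 has 114 reads, H2A.B 67, replicates 2 and 3 have 5 each, IgG ChIP 4 and IgG MeDIP 1. The bars of replicate 2 near 5 kb come mostly from the surroundings of the Gnas and Peg3 peaks.

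Over whole intervals, replicate 1 had the highest fold of the 3 5mC libraries in each of the 7. The reads per kb of each interval were divided by those in the 50 kb on each side of it. In replicate 1 the fold was 4.34 (2.64 to 7.11) for Mest, 2.47 (1.56 to 3.90) for Peg3, 2.47 (1.75 to 3.50) for Gnas, 2.29 (1.46 to 3.53) for Impact, 1.93 (1.26 to 3.01) for Grb10, 1.78 (1.19 to 2.67) for Plagl1 and 0.788 (0.631 to 0.987) for Igf2r and Airn. The 95% intervals of the first 6 overlapped one another, those of Mest and Plagl1 only just (2.64 and 2.67). Differences between the 6 were not tested. At least 1.5 times the flanks was reached by 6 of the 7 in replicate 1, against 20.2% of all 50 kb tiles of the genome. In replicate 2 it was reached by 1 (Gnas, 1.92), against 16.0%, and in replicate 3 by 2 (Mest, 1.94, and Impact, 1.75), against 12.9%. The intervals were 20 to 178 kb long, so the shares of 50 kb tiles, here and below, are only a rough match.

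No interval reached 1.5 times in all 3 libraries, a rule met by 2.34% of tiles, while 2 did so without replicate 2 and 1 without replicate 3. The 5mC means were 1.84 ± 0.666 for Gnas, 0.694 ± 0.137 for Igf2r and Airn, 1.35 ± 0.970 for Peg3, 2.57 ± 1.56 for Mest, 1.22 ± 0.622 for Grb10, 1.13 ± 0.570 for Plagl1 and 1.5 ± 0.934 for Impact (SD, n = 3 for each). Without replicate 1 the means were 0.797 for Peg3, 0.865 for Grb10 and 0.797 for Plagl1, which then lay below 1. Those of Mest (1.69), Gnas (1.53) and Impact (1.11) stayed above 1, and that of Igf2r and Airn was 0.646. Igf2r and Airn lay below 1 in each of the 3 libraries, at 0.788, 0.756 and 0.537. IgG ChIP stood at 1.05 (0.619 to 1.83) there.

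The reads of replicate 1 were concentrated in the peaks themselves. Its windows called high held 67.6% of its reads in the Impact interval, 60.6% in Gnas, 59.2% in Plagl1, 51.5% in Mest, 50% in Peg3, 31.4% in Grb10 and 29.2% in Igf2r and Airn. With those windows left out the fold of replicate 1 was 1.10 (0.707 to 1.70) in Gnas, 1.32 (0.722 to 2.32) in Peg3, 1.33 (0.839 to 2.15) in Grb10, 0.758 (0.430 to 1.28) in Plagl1 and 0.806 (0.383 to 1.54) in Impact. Mest stood at 2.34 (1.22 to 4.30), and Igf2r and Airn at 0.581 (0.455 to 0.740). These windows were chosen for their height in replicate 1, which lowers what remains.

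**Figure D5:**
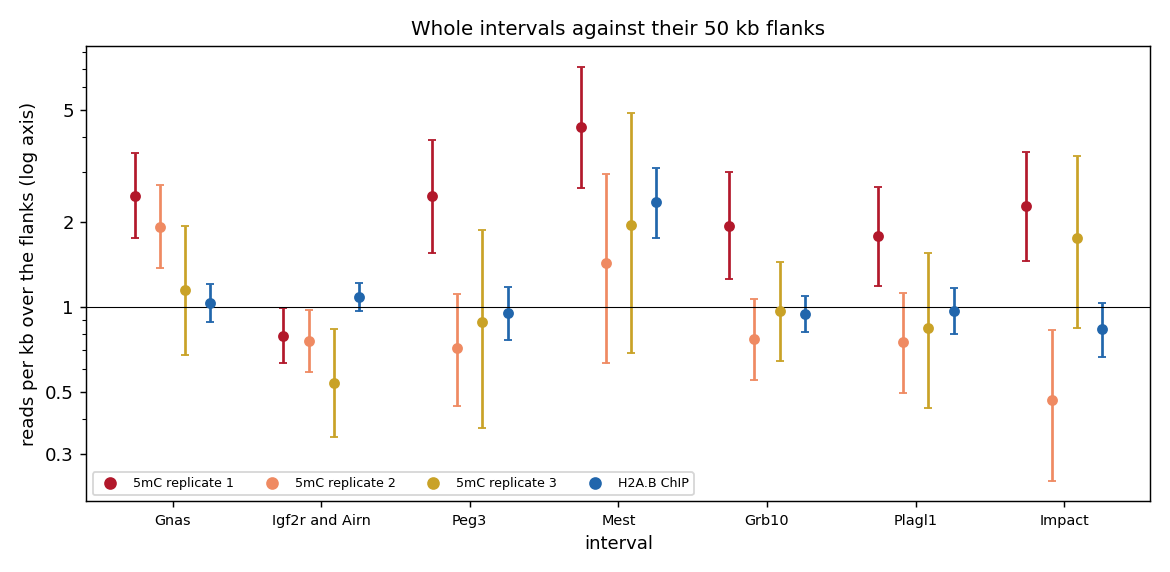
Reads per kb of each interval over its 50 kb flanks (vertical log axis) for the 7 intervals (horizontal axis) in the 3 5mC libraries and H2A.B ChIP, with exact 95% intervals. Replicate 1 is the highest of the 3 5mC libraries in all 7 intervals, and the H2A.B points lie between 0.832 and 2.34.

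In H2A.B ChIP the intervals other than Mest lay near their flanks. The fold was between 0.832 and 1.08 in 6 of the 7, and Mest stood at 2.34 (1.76 to 3.10). At least 1.5 times was reached by Mest alone, against 1.42% of all tiles. IgG ChIP had a fold of 5.00 (1.76 to 14.2) in the Mest interval, from 9 reads within it and 9 in the flanks, so the H2A.B value there stood beside a rise in the control.

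Compared directly with IgG ChIP, each scaled to its total of distinct reads, H2A.B was called neither higher nor lower in any interval. The rule asked for a ratio of at least 1.5, or its inverse, with a 95% interval clear of 1, and was met by 9.67% of all 100 kb windows in the higher and 9.44% in the lower direction. The ratio was 1.74 (0.955 to 3.52) for Gnas, 1.71 (0.647 to 6.39) for Impact and 1.35 (0.993 to 1.88) for Igf2r and Airn. It was 0.841 (0.427 to 1.89) for Peg3, 0.752 (0.529 to 1.10) for Grb10, 0.728 (0.428 to 1.33) for Plagl1 and 0.558 (0.279 to 1.27) for Mest. With 4 to 43 IgG reads in an interval, the limits for Gnas, Impact, Igf2r and Airn, and Peg3 held a ratio of 1.5. Those for Impact, Peg3, Grb10, Plagl1 and Mest held the inverse of 1.5, so no interval was shown to be unchanged. With all reads as deposited in place of distinct ones, Gnas was called higher at 1.83 (1.07 to 3.39) and Mest lower at 0.499 (0.275 to 0.981). The 2 libraries also differed in flow cell and read length, which cannot be told apart from the antibody.

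The comparison of 5mC with IgG MeDIP over whole intervals had little depth, since IgG MeDIP held 8 reads in Igf2r and Airn, 7 in Gnas, 5 in Grb10, 4 in Plagl1 and 0 in Peg3, Mest and Impact. The 5mC libraries were thinned to its depth and the intervals were fitted with limma together with all kept 100 kb windows. No interval passed a Benjamini-Hochberg adjusted p of 0.05 in either direction, and 0.00% of the 25581 rows did so (at an unadjusted p under 0.05, 1616 rows lay above IgG and 139 below, none of them a member). The log2 difference of 5mC from IgG MeDIP was 1.83 (SE 0.73) for Peg3, with an adjusted p of 0.660, the smallest of the 7 by limma. It was 1.58 (SE 1.51) for Impact, 1.06 (SE 1.72) for Mest, 0.58 (SE 0.67) for Igf2r and Airn and 0.11 (SE 0.52) for Grb10. Gnas and Plagl1 stood at -0.75 (SE 0.72) and -1.18 (SE 0.79). Where IgG MeDIP had 0 reads the value depends on the pseudocount and is no bound. Without thinning, limma called Peg3, Mest and Impact, the 3 intervals with no IgG MeDIP read, at log2 differences of 2.30, 1.88 and 2.19 (adjusted p 0.00118, 0.0122 and 0.00224), where 3667 of all rows were called higher and 173 lower. With IgG ChIP in place of IgG MeDIP the sign turned in Gnas, Igf2r and Airn, Peg3, Mest and Grb10, with no call, and without replicate 2 in Grb10. At the depth of IgG MeDIP, differences of these sizes between 5mC and IgG MeDIP were not detectable.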

How the data were processed

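The deposited files are lists of aligned reads with positions, a score and a strand. The submitters' processing notes name Bowtie, FastQC and the build mm9. For versions, settings and reads with several matches, the sources used here give nothing. The deposited score holds a single value in each list and entered no result. Fragments were 200 to 400 bp long with 20 PCR cycles in ChIP, and 100 to 400 bp with 15 cycles in MeDIP, per the labels' protocols.

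Lines without tabs (1 in H2A.B ChIP, 8 in 5mC replicate 1) and 2979 reads of 5mC replicate 2 with a blank strand were left out. Reads were placed by their 5′ end and counted once per chromosome, position and strand. Read lists give counts, so the depth per library is its number of distinct reads. Coordinates count from 1. The 7 intervals, the windows and the rules were chosen with earlier results of these data known. The rule for 1 library alone, and the peak windows, were chosen after the values were seen. Within an interval the text names the window with the highest mean 5mC fold, that with most H2A.B reads, and windows that passed a rule. In each interval other than Gnas the highest mean 5mC fold fell in the peak window of replicate 1, and in Gnas in that of replicate 2.

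Windows of 1 kb were compared with the 50 kb on each side, with exact 95% Clopper-Pearson intervals (scipy 1.17.1). PCR reads without molecular identifiers are not independent molecules, so intervals and limits cover counting error only. The limit for 0 reads is the fold of 3 reads. The genome background was all 1 kb windows with reads in the flanks in each 5mC library and IgG ChIP. The 5mC and IgG MeDIP libraries were compared by limma 3.58.1 (R 4.3.3) with an intensity trend on log2 CPM, two-sided, with a pseudocount worth 0.5 reads of IgG MeDIP. It was fitted on 25574 of 26427 windows of 100 kb, after leaving out 770 under 25% of the median level and 83 over 10 times a library's median, plus the 7 intervals. With 1 IgG library, its spread was taken from the 5mC replicates. The rules and the limma fit were tested on simulated data. Sequences came from the RefSeq promoter table of GRCm38.p6 and were not placed on mm9.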

Additional observations from a re-analysis of the deposited data

How the results depend on the processing

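No paired analysis was possible because no group other than 5mC MeDIP has replicate numbers. Of 175 alternative values, 151 were labelled the same, 15 moved, 6 turned sign and 3 passed the threshold. The label was loose, so 151 does not measure robustness. Counts that changed little kept it, such as 7 windows high in H2A.B becoming 5 with flanks of 200 kb. Interval means kept it when they shifted by less than the SD of the 3 5mC libraries. Leaving out 1 of 3 libraries cannot shift a mean by that much, so those values could not lose the label. The Peg3 mean kept it while falling from 1.355 to 0.797 without replicate 1. The fold of replicate 1 at the 7 peak windows stayed within its 95% interval with all reads as deposited, with reads placed 100 bp downstream and with flanks of 200 kb, and these alternatives were chosen after seeing the data. Its 24 high windows became 15 windows of 2 kb, and 12 at 8 times the flanks. The 7 of replicate 2 became 14 with all reads, 4 in 2 kb windows and 3 at 8 times. The 7 windows high in H2A.B became 1 in 2 kb windows and 20 at 2 times the flanks. Windows high in all 3 5mC libraries numbered 0, and 1 to 4 with a replicate left out (4 without replicate 1, 4 without replicate 2 and 1 without replicate 3). Intervals high in all libraries numbered 0, and 0 to 2 with a replicate left out. With all reads, 2 intervals differed between H2A.B and IgG ChIP (Gnas higher, Mest lower).

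Without thinning, limma called 3 intervals, Peg3, Mest and Impact (log2 2.30, 1.88 and 2.19, adjusted p 0.00118, 0.0122 and 0.00224), the 3 with no IgG MeDIP read, and 3667 rows higher and 173 lower. With IgG ChIP as the background the sign turned for Gnas (1.25), Igf2r and Airn (-0.0522), Peg3 (-0.49), Mest (-0.65) and Grb10 (-0.38), with no call. With a replicate left out Grb10 ranged from -0.14 (without replicate 2) to 0.31. With 124157 distinct reads in IgG MeDIP, whole intervals held 0 to 8 of its reads, which limits that comparison.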
